A study of Mus musculus with 15 samples.

Results

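A set of 655 circular RNAs (circRNAs) was seen in dopamine neurons of the embryonic mouse midbrain at embryonic day 14 (E14) and listed at 0 at birth (P0). A circRNA entered the set when its deposited value was above 0 in at least 2 of 3 E14 libraries and equal to 0 in all 3 P0 libraries. The set held 8.70% of the 7528 circRNAs in the time series table and 30.4% of the 2154 that were above 0 in 2 or 3 E14 libraries. Members were thus chosen by their E14 and P0 values, and those levels of the members are given below as a description, without a test. The host of a circRNA is the gene whose symbol ends its name, so that circ_00197_Lin28b came from Lin28b.

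The cells came from the ventral midbrain of mice of genotype Pitx3-GFP and had passed fluorescence-activated cell sorting. In these mice green fluorescent protein (GFP) reports Pitx3, which encodes a transcription factor of midbrain dopamine neurons. The labels do not give the zygosity of the reporter. A time series held GFP+ cells at E14, at embryonic day 16 (E16) and at P0, with 3 libraries per age, and a second experiment held GFP+ and GFP− cells of E14, with 3 libraries each. Tissue of 3 litters went into the time series, but the labels do not tie a replicate to a litter. The p-values below therefore measure the spread between these libraries, which may be partly technical. The miRNeasy micro kit served for total RNA, ribosomal RNA was depleted, and ScriptSeq v2 libraries were made, a preparation that keeps RNAs without a poly(A) tail.

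A circRNA forms when a splice donor is joined to an acceptor that lies upstream of it in the same transcript, a reaction called back-splicing. The closed loop has no free ends, resists exonucleases and can outlast the linear RNA of its gene. Neurons are rich in circRNAs, and the circles of a gene can change during development independently of its messenger RNA. A circle is counted only from reads that cross its back-splice junction, so far fewer reads support a circle than a gene. The circRNA table names circles without positions, so their back-splice junctions and sequences were not analysed here.

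The zeros at P0 have to be read against the depth of the libraries. The 3 E14 libraries held 29934, 32905 and 24760 circRNA reads, the E16 libraries 33061, 22231 and 28825, and the P0 libraries 11196, 12268 and 18097. Pooled over libraries, P0 had 0.474 times the circRNA reads of E14, while it had 1.09 times the reads over genes. Per 1000000 gene reads, circRNA reads stood at 1256 ± 113 at E14, 1051 ± 149 at E16 and 542 ± 35.6 at P0 (mean ± SD, n = 3 libraries). The E14 and P0 libraries did not overlap in this ratio (exact permutation test, two-sided, p = 0.1, the smallest p that 3 against 3 libraries allow). In bulk samples, fewer cells that make a circle and fewer circles per cell cannot be told apart. All 14 dopamine neuron markers were in the gene table, and their summed level was 127472 to 136313 normalized reads at E14 and 250779 to 311363 at P0. Of the 14, 6 were called lower and 6 higher at P0 in the test of gene RNA below, with a median log2 fold change of 0.15. Of 22 markers of radial glia and progenitors, 7 were in it, summing to 17857 to 18120 at E14 and 14223 to 18539 at P0. None of 20 markers of glia, vessels, blood and microglia was in that table, whose lowest gene mean is 107 normalized reads.

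**Figure D1:**
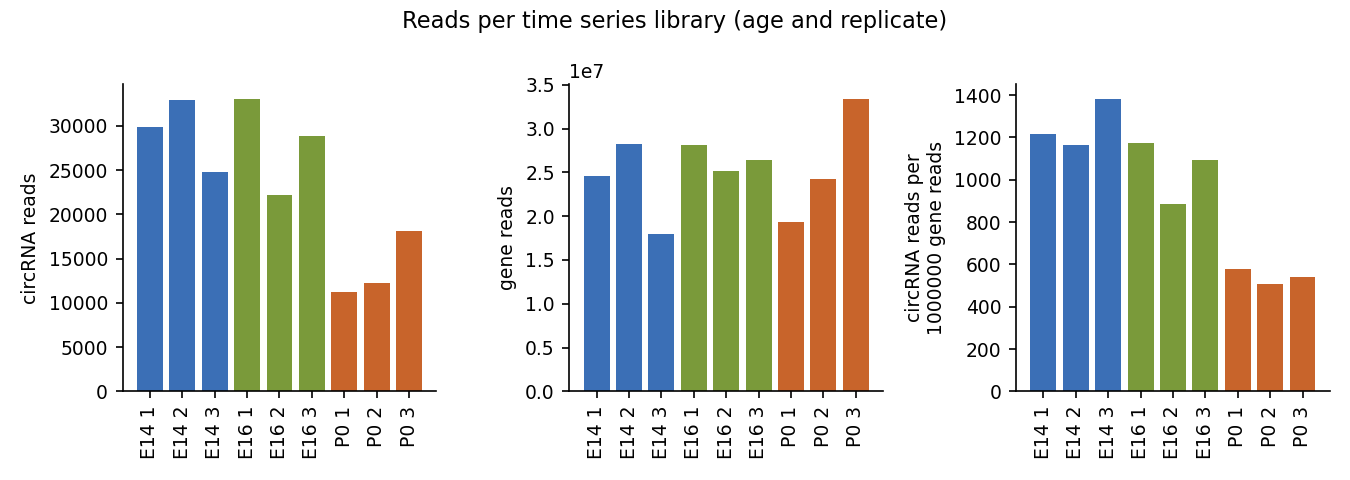
Reads per time series library, with the age and replicate number on the x axis. Bars give circRNA reads (left), gene reads (middle) and circRNA reads per 1000000 gene reads (right). The 3 P0 libraries are the lowest in circRNA reads, between 11196 and 18097, but not in gene reads.

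Most members were rare circles. Their reads, summed over the E14 libraries, ran from 4 to 101 with a median of 9, and 90% of members had no more than 18. The 1499 circRNAs seen at E14 and also at P0 had a median of 19 reads. Of the members, 481 were above 0 in 2 E14 libraries and 174 in all 3. At the edge of the rule stood 34 members with 2 reads in each of 2 libraries, among them circles of Topbp1, which encodes a DNA repair scaffold, and of Wdr37. The lowest value above 0 was 2 reads in every library, so a listed 0 may hide a single read.

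The share of circles at 0 at P0 was smaller among circles with more E14 reads. Among circRNAs with 4 to 5 E14 reads, 101 of 160 were at 0 in all P0 libraries (63.1%; 95% exact binomial interval 55.1% to 70.6%). These intervals treat circRNAs as independent, although all share the same libraries, and hold no spread between libraries. The rule used the same values, so the intervals are a description and no test. At 15 to 24 reads the share was 91 of 444 (20.5%; 16.8% to 24.6%). At 25 to 49 reads it was 24 of 345 (6.96%; 4.51% to 10.2%). Above that, 3 of 157 circles with 50 to 99 reads and 1 of 124 with 100 or more were at 0. In the E16 libraries, whose total was near that of E14, the shares at 0 were 47.5% at 4 to 5 reads, 4.28% at 15 to 24 and 0.870% at 25 to 49 reads.

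**Figure D2:**
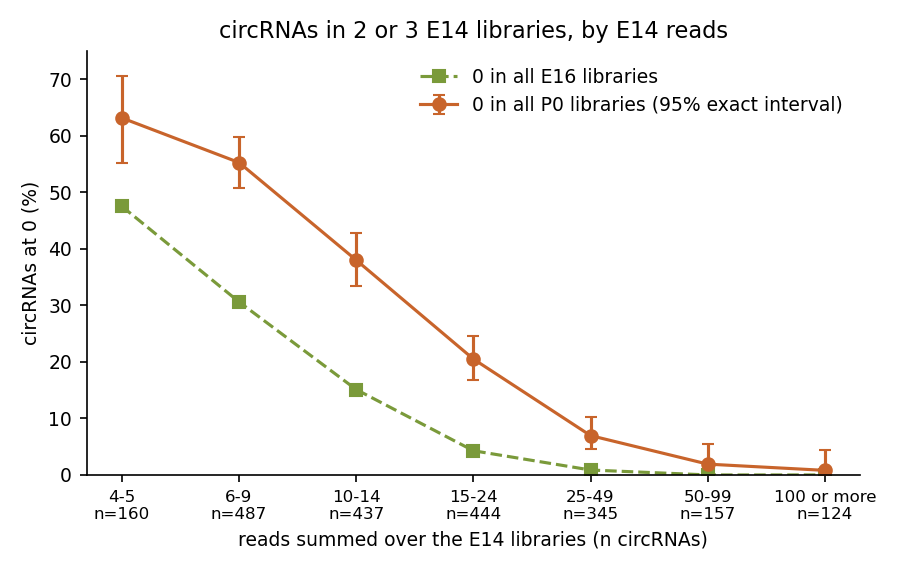
Share of circRNAs at 0 in all P0 libraries (circles, with 95% exact binomial intervals) and in all E16 libraries (squares), by their reads summed over the E14 libraries on the x axis; n is the number of circRNAs per bin. The P0 share goes from 63.1% in the lowest bin to 0.806% in the highest and lies above the E16 share in each bin. The intervals treat circRNAs as independent and hold no spread between libraries.

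Scaling sets how many of the zeros go beyond the limit of a count of 0. A count of 0 over the P0 group allows up to 3 reads. With E14 reads multiplied by 0.474, 489 of the 655 members (74.7%) would have stood above 3 reads at P0, which needed at least 7 reads at E14. These were 25.9% of the 1889 circRNAs seen at E14 that could have passed that limit. Passing it is no test of loss, since E14 reads were taken as exact and members were chosen for being seen at E14. Scaled likewise, all 313 circRNAs that went to 0 from E14 to E16 also passed, as did all 245 from E16 to E14. For the 166 members not above the limit at P0, an unchanged share of circRNA reads was not distinguishable from 0 at this depth. Scaled by the totals of gene reads instead, all 655 members would have stood above 3 reads at P0. No member could have failed this. The lowest number of E14 reads that the rule allows is 4, and P0 had 1.09 times the gene reads of E14. If each listed 0 hides 1 read, the limit becomes 6.39 reads, and 149 members from 128 named hosts lay above it, 12.9% of 1152. Of those 149, 106 were above 0 in all E14 libraries and 129 in at least 1 E16 library.

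The rule applied to other pairs of ages gave smaller sets. From E14 to E16, 313 of 2154 circRNAs (14.5%) went from at least 2 libraries to none. From E16 to P0 it was 497 of 2015 (24.7%). In the opposite direction, 245 of the 2015 circRNAs in 2 or 3 E16 libraries (12.2%) were at 0 in all E14 libraries. The read totals of E14 and E16 were near each other. Of the 1237 circRNAs in 2 or 3 P0 libraries, 111 (8.97%) were at 0 in all E14 libraries. The depths of these pairs differ, so the shares are set side by side without a comparison.

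A listed 0 also occurred beside high values within an age. Of the cases in which a circRNA had at least 10 reads in both other libraries of its age, the remaining library was at 0 in 19 of 1203 at E14 (1.58%), 36 of 1181 at E16 (3.05%) and 17 of 552 at P0 (3.08%). Circ_00028_Rmst, no member, had 39, 0 and 43 reads in the P0 libraries. The part of such zeros in the set of members was not tested.

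The most abundant member was circ_00197_Lin28b. Lin28b encodes an RNA-binding protein that blocks the maturation of let-7 microRNAs and is known from fetal and stem cells. Its circle had 35, 28 and 38 reads in the E14 libraries, 18, 14 and 32 at E16 and 0 in each P0 library. As normalized reads it stood at 27.2 ± 7.30 at E14 and 16.6 ± 6.84 at E16 (mean ± SD, n = 3). Scaled to the P0 total, its E14 reads correspond to 47.9, against the limit of 3 reads. All E14 libraries held the circle, and the highest E16 library lay within their range in reads.

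Circ_00417_Rere followed, from a gene that encodes a corepressor of embryonic development, with 17, 28 and 18 reads at E14 and 0, 8 and 17 at E16. Circ_00443_2610307P16Rik, from a non-coding transcript, had 10, 15 and 31 reads at E14 and 12, 14 and 2 at E16, and E14 replicate 3 held more than both other E14 libraries together. Circ_00498_Pde5a came from the gene of a phosphodiesterase that breaks down cyclic GMP and had 25, 11 and 16 reads at E14 and 5, 0 and 18 at E16. Each of these circles was thus in all E14 libraries, while those of Rere and Pde5a were missing from 1 E16 library.

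Further leading members were circles of Zswim6, Aff3, Psd3 and Pbrm1. Circ_00483_Zswim6, from a zinc finger gene, had 21, 10 and 14 reads at E14 and 13, 10 and 9 at E16. Circ_00467_Aff3, from a gene of a nuclear elongation complex protein, had 18, 18 and 9, then 13, 14 and 8. Both circles were in every E16 library. Psd3, which encodes an exchange factor of the ARF6 GTPase at synapses, gave circ_00574_Psd3 with 17, 17 and 8 reads and circ_00641_Psd3 with 10, 19 and 9. Pbrm1 encodes a bromodomain subunit of a chromatin remodelling complex, and circ_00366_Pbrm1 had 11, 9 and 18 reads at E14 and 10, 27 and 23 at E16. It had the highest E16 mean of the set, 16.7 ± 9.58 normalized reads against 10.4 ± 5.29 at E14.

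**Figure D3:**
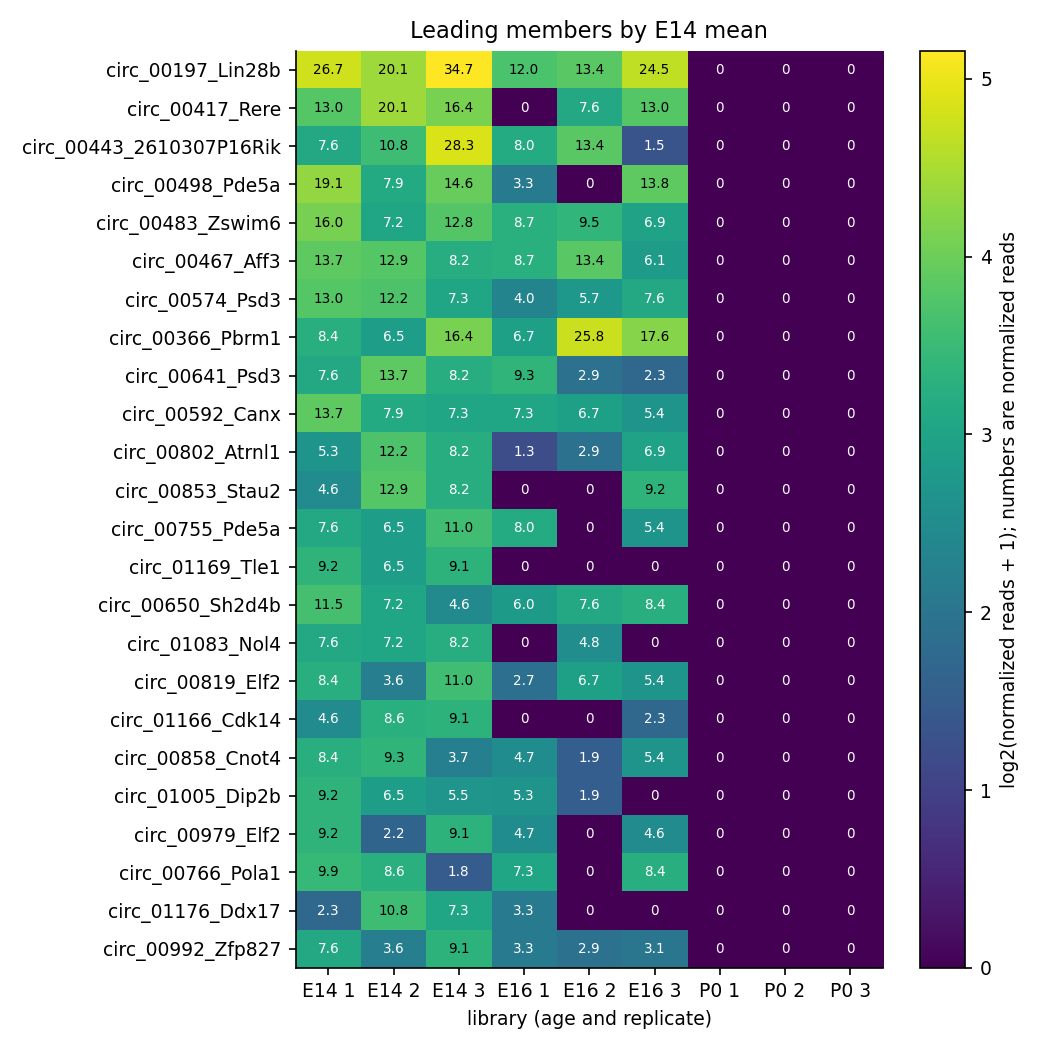
Normalized reads of leading members by E14 mean, without a circle not reported here (rows), in the 9 time series libraries (columns, by age and replicate). Colour gives log2(normalized reads + 1) and the printed number the normalized reads. Circ_00197_Lin28b leads, most rows keep values at E16, circ_01169_Tle1 is at 0 in all E16 libraries, and every row is at 0 at P0 by the rule.

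In the authors' deposited table of P0 against E14, 1397 circRNAs carry an adjusted p, and 22 of them (1.57%) are called lower at an adjusted p under 0.05. The table gives an adjusted p to 78 members and calls 10, among them circ_00592_Canx, from the gene of the chaperone calnexin. For circ_00197_Lin28b the authors' deposited table lists -6.65 on the log2 scale (SE 1.35, adjusted p = 0.000197). These calls use the contrast that chose the members and are no separate support. For E16 against E14, the authors' deposited table calls 0 circRNAs and places 535 of the 655 members below 0.

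The E16 values were not used by the rule. Members made up 7.96%, 8.18% and 8.07% of circRNA reads in the E14 libraries and 4.26%, 4.22% and 4.88% in the E16 libraries. A lower share at E16 follows in part from the choice of circles that were seen at E14, so no test was made. Of the 655 members, 222 were at 0 in all E16 libraries, 222 were in 1, 145 in 2 and 66 in all 3. Among the 1499 circRNAs seen at both E14 and P0, 57.6% were in all E16 libraries and 6.07% in none. For members those shares were 10.1% and 33.9%. Of the set, 120 members had a higher mean at E16 than at E14.

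Among the members that were already at 0 at E16, circ_01169_Tle1 had the highest E14 level, with 12, 9 and 10 reads. Tle1 encodes a Groucho-family corepressor. Circ_01756_Epb41, from a membrane skeleton gene, had 2, 4 and 12 reads. Circ_01658_Nedd4, from a ubiquitin ligase gene, had 6, 8 and 5. Circ_01751_Zkscan1, from a zinc finger gene, had 4, 8 and 6, and circ_02005_Atp9b, from a gene of a phospholipid flippase, had 4, 2 and 9. These 5 circles were in all E14 libraries and in no later one.

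The members came from 518 named hosts, and 13 members had no named host. Of the hosts, 423 gave 1 member, 74 gave 2, 14 gave 3, 6 gave 4 and Ckap5 gave 5. These hosts had a median gene span of 100364 bases and a median E14 gene level of 2672 normalized reads. The 696 other hosts of circRNAs seen at E14 had 99618 bases and 2064 normalized reads. All genes of the table had medians of 27300 bases and 959 normalized reads, so both groups of hosts were long and well expressed. Gene level is not corrected for length here. The GFP− libraries held a circle, in at least 2 of 3 libraries, for 270 of the 518 hosts (52.1%) and for 447 of the 696 other hosts (64.2%). Circles could not be matched between the tables, so these shares are about hosts.

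Many hosts had other circles at birth. The 518 hosts had 1809 further circRNAs in the table, and 310 hosts had at least 1 of these above 0 at P0, 192 of them in 2 or 3 P0 libraries. The other 208 hosts had no circRNA above 0 at P0. In 301 hosts the most abundant circle at E14 was a member.

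Single hosts show both cases. The 4 members of Psd3 had 106 reads at E14, 69 at E16 and 0 at P0, while its 8 other circles had 876, 710 and 295 reads. The 4 members of Rere had 98, 55 and 0 reads, and its 24 other circles 948, 968 and 487, a P0 to E14 ratio of 0.514 beside 0.474 for all circRNA reads. In Rmst, a long non-coding RNA gene that gives rise to the circle in the title of the study, 1 minor circle was a member with 0, 2 and 8 reads at E14, while its 20 other circles had 2573 reads at E14 and 698 at P0. Ezh2, the catalytic subunit of the Polycomb repressive complex, had 1 member with 10, 0 and 8 reads at E14 and 4, 11 and 7 at E16, beside 10 other circles with 1555 reads at E14 and 433 at P0. The 3 members of Robo1, an axon guidance receptor for Slit proteins, had 19 reads at E14 and 0 at E16 and P0, but its 4 other circles had 710, 650 and 238. In these 5 genes the members had fewer reads than the other circles at each age. Unlike in Rere, the P0 to E14 ratio of the other circles was under 0.474 in the remaining genes. It was 0.337 in Psd3, 0.271 in Rmst, 0.278 in Ezh2 and 0.335 in Robo1.

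In other hosts the members had most of the circRNA reads at E14. The 2 members of Lin28b had 121, 69 and 0 reads at the 3 ages, and its only other circle had 16, 24 and 5. All 4 circles of Sh2d4b in the table were members, with 65, 42 and 0 reads. Ckap5 encodes a microtubule polymerase of the spindle and of axons. Its 5 members had 59, 18 and 0 reads and its 8 other circles 36, 4 and 6. Zswim6 had 45, 32 and 0 reads from its member and 23, 8 and 6 from its 3 other circles.

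**Figure D4:**
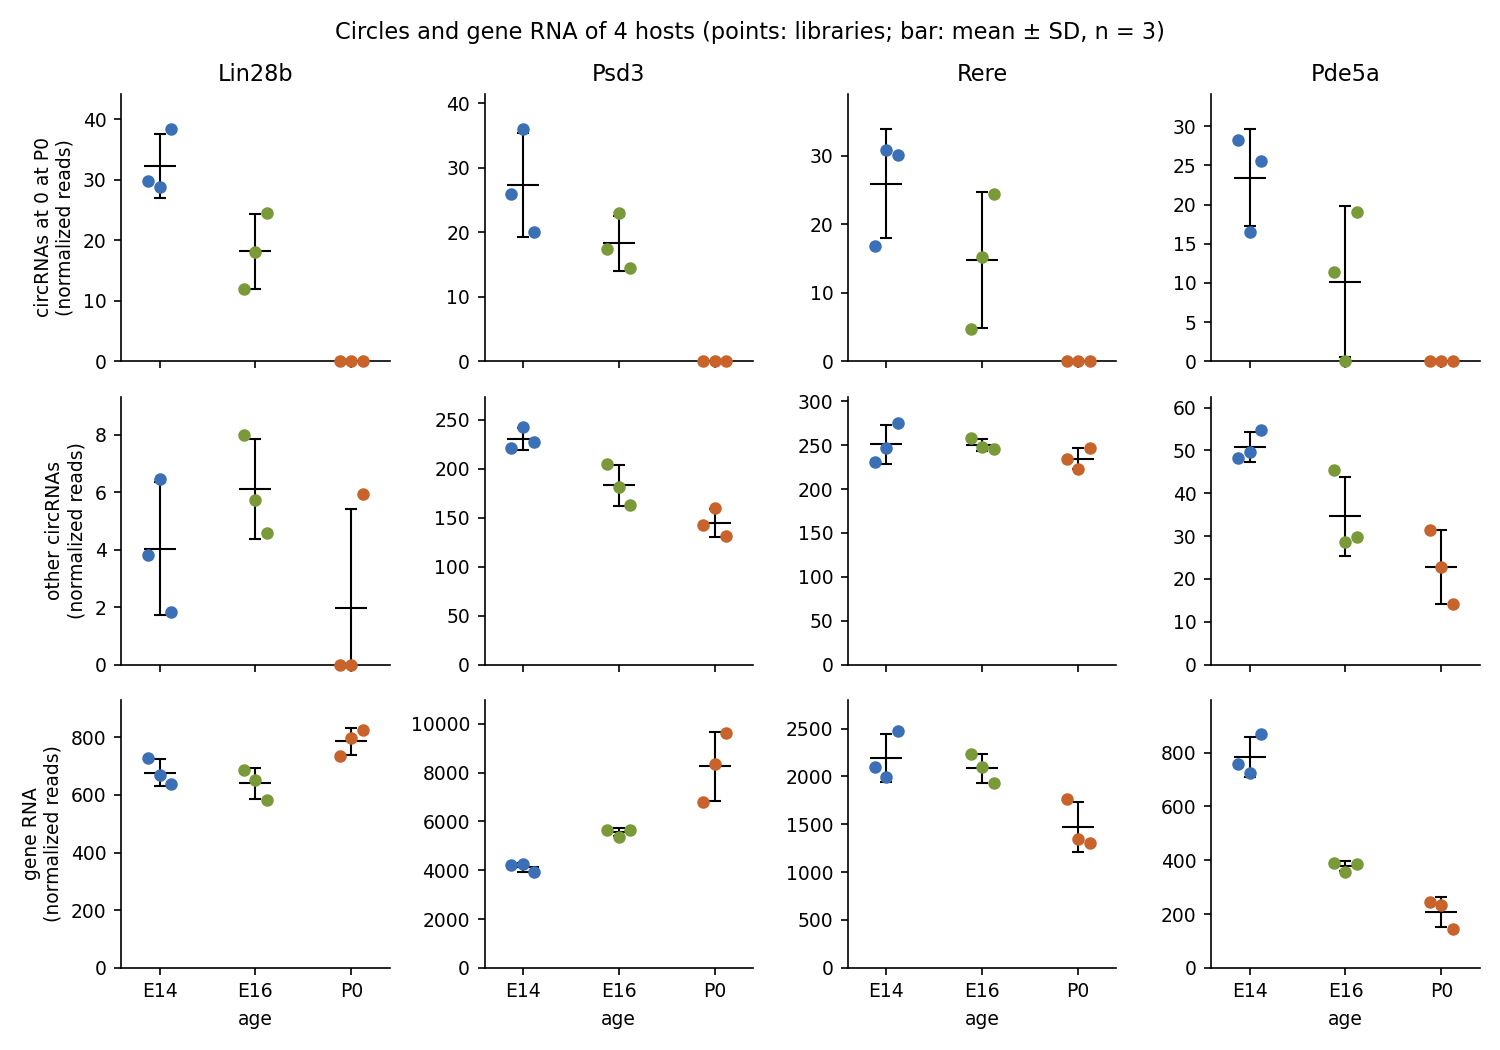
Normalized reads of Lin28b, Psd3, Rere and Pde5a (columns) at E14, E16 and P0, summed over the members (top), summed over the other circRNAs of the gene (middle) and for the gene RNA (bottom). Points are libraries and bars the mean ± SD (n = 3). Members are at 0 at P0 by the rule. The other circles of Psd3, Rere and Pde5a are above 0 in every P0 library. That of Lin28b has 5.93 normalized reads in P0 replicate 3 and 0 in the other P0 libraries. Gene RNA lies higher at P0 for Psd3 and lower for Pde5a and Rere.

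Lists of genes by function held the hosts of 165 of the 655 members, and the remaining members were on none of them. No list was tested for enrichment. Only genes with a circRNA seen at E14 could give a member, and 518 of 1214 such named hosts did. Such genes numbered 42 among the chromatin and transcription regulators, 54 among the signalling genes and 30 among the cytoskeleton and transport genes. Chromatin and transcription regulators gave 31 members from 23 of 75 listed genes, led by circ_01269_Mllt10 with 10, 6 and 7 reads at E14 and circ_01079_Ehmt1 with 7, 8 and 5. Mllt10 encodes a cofactor of histone H3 methylation and Ehmt1 a histone methyltransferase. Kinase, GTPase and phosphatase signalling gave 29 members from 22 of 110 genes, led by the circles of Pde5a and by circ_00808_Pde4d, from a cyclic AMP phosphodiesterase gene, with 4, 9 and 10 reads. Cytoskeleton and transport genes gave 28 members from 18 of 76, among them circ_01229_Ckap5, circ_01459_Kif5c from a kinesin motor gene and circ_00980_Ank2 from an ankyrin gene, with 20, 18 and 18 E14 reads in total.

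Synaptic genes gave 19 members from 11 of 77 listed genes, 20 of which had a circRNA seen at E14. Circ_00797_Erc1, from a gene of an active zone scaffold, had 6, 4 and 13 reads at E14 and 17, 2 and 5 at E16. Circ_00848_Nrxn3, from a presynaptic adhesion gene, had 12, 5 and 4, then 10, 8 and 6. Circ_00945_Rims2, from a gene of vesicle release, had 2, 7 and 8, then 8, 4 and 11. These synaptic circles were in all libraries of both embryonic ages. Ubiquitin ligases and deubiquitinases gave 18 members from 13 of 66 genes, 28 of which had a circRNA seen at E14. RNA splicing, binding and editing gave 13 members from 9 of 56 genes, 15 of which had a circRNA seen at E14. In that list circ_01507_Elavl2 was at 7, 7 and 0 reads and circ_01384_Khdrbs3 at 7, 7 and 0.

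Genes of migration, adhesion and axon guidance, the process in the study title, gave 12 members from 8 of 78 genes. Of these 78, 16 had a circRNA seen at E14. Circ_01056_Ncam2, from a gene of a neural adhesion molecule, had 5, 11 and 7 reads at E14. Circ_01499_Efnb2, from the gene of an ephrin ligand, had 5, 7 and 7. Smaller groups were cell division and DNA repair, with 6 members from Cdk14, Pola1 and Smc3, and ion channels, with 5 members from 4 genes that include the calcium channel genes Cacna1a and Cacna2d3. A circRNA was seen at E14 for 10 genes of the cell division list and for 16 ion channel genes. Transcription factors of dopamine neurons gave 4 members, from Ebf2, Bnc2, Nfib and Rmst, which is a non-coding gene of that list. Their 4 circles had 5 to 10 reads at E14. That list held 7 genes with a circRNA seen at E14. No member came from the lists of dopamine neuron markers, progenitor markers, markers of other neurons, or markers of glia, vessels, blood and microglia. Only 2 genes of these lists, both progenitor markers, had any circRNA seen at E14, so hardly any member could have come from them.

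Host gene RNA, which the rule did not use, was tested across all 10781 genes of the time series with limma-trend. Of 503 hosts measured, 227 (45.1%) were lower at P0 than at E14 and 72 (14.3%) were higher at an adjusted p under 0.05. Of all genes, 30.6% were called lower and 25.1% higher. The 676 tested other hosts of circRNAs seen at E14 gave 243 lower (35.9%) and 168 higher (24.9%). The median log2 fold change was -0.16 for the member hosts, -0.10 for the other hosts and -0.05 for all genes. The E14 and P0 libraries did not overlap for 254 hosts that were lower and 89 that were higher, where 36.2% and 28.9% of all genes had no overlap in these directions. The hosts therefore had more lower calls and fewer higher calls than the background, but the difference between these groups of hosts was not tested, and the member hosts had higher levels at E14 than the other groups.

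**Figure D5:**
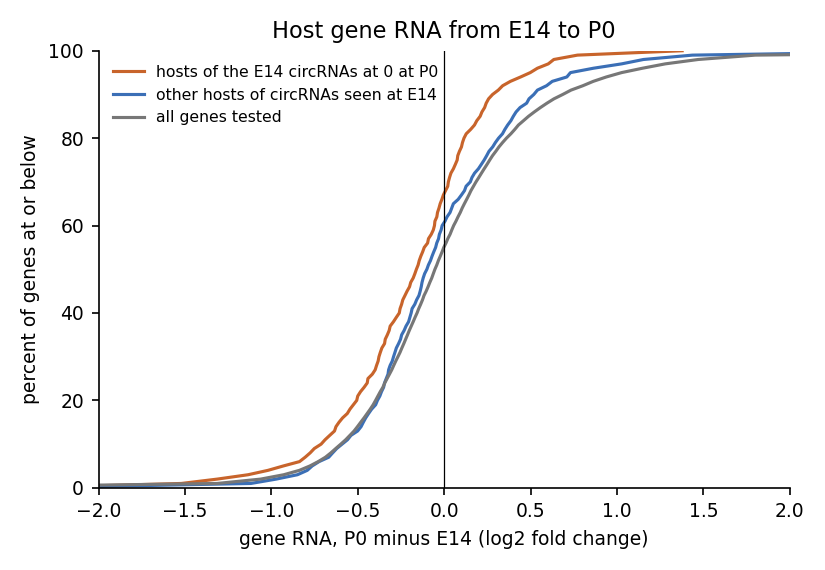
Cumulative share of genes (y axis, percent) by log2 fold change of gene RNA from E14 to P0 (x axis, P0 minus E14). Lines stand for the tested member hosts, the other hosts of circRNAs seen at E14 and all genes. The medians are -0.16, -0.10 and -0.05.

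The 5 hosts with the largest decrease were Ebf2, Pde5a, Ezh2, Prom1 and Sema5b. Ebf2, a transcription factor of young neurons (chromosome 14, 67233292 to 67430918, GRCm38), stood at 4052, 3921 and 4041 normalized reads at E14, 1851, 1726 and 1880 at E16 and 921, 787 and 557 at P0. Its log2 fold change from E14 to P0 was -2.44 (SE 0.13, limma adjusted p = 6.93e-09), and the ages did not overlap. Pde5a (chromosome 3, 122728947 to 122859374) went from 758, 726 and 869 at E14 to 246, 233 and 144 at P0, a change of -1.95 (SE 0.17, limma adjusted p = 3.99e-07). Ezh2 (chromosome 6, 47530139 to 47595341) went from 3198, 3402 and 3997 to 1045, 989 and 786, a change of -1.91 (SE 0.13, limma adjusted p = 3.51e-08). Prom1, a membrane glycoprotein of progenitors, and Sema5b, a guidance semaphorin, were lower by log2 fold changes of -1.84 and -1.73. The member of Ebf2 had only 4, 2 and 0 reads at E14, fewer than the 7 needed to pass the limit.

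The 5 hosts with the largest increase were Ncam2, Adamts6, Psd3, Slc41a2 and Kcnma1. Ncam2, the neural adhesion gene (chromosome 16, 81200697 to 81626828) stood at 2984, 2759 and 2566 normalized reads at E14 and 7209, 7666 and 6705 at P0, a log2 fold change of 1.38 (SE 0.09, limma adjusted p = 4.1e-08). Adamts6, an extracellular protease, was higher by 1.25. Psd3 (chromosome 8, 67689082 to 68212027) went from 4197, 4258 and 3908 to 6800, 8371 and 9629, a change of 0.99 (SE 0.10, limma adjusted p = 2.07e-06). Slc41a2, a magnesium transporter, and Kcnma1, a calcium-activated potassium channel, were each higher by 0.82. These hosts had more gene RNA at P0 in every library than at E14. Their members were at 0 at P0 by the rule.

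The hosts of the leading circles did not share a direction. Lin28b (chromosome 10, 45376620 to 45486395) stood at 727, 668 and 637 normalized reads at E14, 686, 652 and 581 at E16 and 735, 796 and 825 at P0. Its log2 fold change from E14 to P0 was 0.21 (SE 0.10, limma adjusted p = 0.0742), which did not pass the threshold. From E16 to P0 it was 0.30 (SE 0.10, limma adjusted p = 0.0299). Rere, Zswim6, Aff3 and Pbrm1 were lower at P0 than at E14, by log2 fold changes of -0.58, -1.40, -1.07 and -0.37. Gene 2610307P16Rik was not in the gene table. Reads inside exons may stem from linear or circular RNA, so the gene values are not free of circles.

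Members had close medians whatever the direction of the host. The 227 lower hosts carried 289 members, the 72 higher hosts 89 and the 204 hosts without a call 244. The median number of E14 reads was 9, 8 and 9 in these groups, and 66.1%, 75.3% and 62.7% of the members were seen in at least 1 E16 library. Hosts with no circle at P0 were lower in 85 of 196 cases (43.4%) and higher in 26 (13.3%). Hosts with a circle in 2 or 3 P0 libraries were lower in 96 of 191 (50.3%) and higher in 28 (14.7%). The shares were 30.6% and 25.1% over all genes, and 35.9% and 24.9% over the other hosts of circRNAs seen at E14. The difference between these groups was not tested.

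By group, the hosts among chromatin and transcription regulators were mostly lower at P0. Of 23 tested, 14 were lower and 1 was higher, beside 48 and 5 of the 74 tested genes of the whole list. Eed, a partner of Ezh2 in the Polycomb complex, was at -0.63 and Ehmt1 at -0.76 (log2 fold change). All 4 hosts among the dopamine neuron factors were lower, beside 16 of 19 in their list. In the RNA splicing, binding and editing list 7 of 9 hosts were lower and 0 higher, beside 25 and 9 of 55. Elavl2, a neuronal RNA-binding protein, was at -0.61 and Khdrbs3, a splicing factor, at -0.69. The list medians were -0.29, -0.94 and -0.27 for the hosts and -0.35, -0.76 and -0.19 for the lists, against -0.05 for all genes.

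Hosts among synaptic, migration and cytoskeletal genes went both ways. Of 11 synaptic hosts 3 were lower and 2 higher, beside 9 and 42 of 75 listed genes. Cadps, which primes dense-core vesicles, was higher by 0.24 and Rims2 lower by -0.31. Of 8 hosts of migration, adhesion and axon guidance 3 were lower and 3 higher, beside 22 and 28 of 76. Robo1 was lower by -0.77 and Efnb2 by -1.24, while Robo2, another Slit receptor, was higher by 0.35. Of 18 cytoskeletal hosts 5 were lower and 6 higher, beside 16 and 28 of 73, with Ank2 at 0.60. Of 21 tested signalling hosts 11 were lower and 3 higher, beside 33 and 30 of 107. Of 13 hosts among ubiquitin ligases and deubiquitinases 4 were lower and 2 higher, beside 20 and 10 of 64. Ion channel hosts gave 1 lower and 2 higher of 4, beside 3 and 34 of 49. The 3 hosts of cell division and DNA repair gave 2 lower and 0 higher, beside 16 and 7 of 37. Over all genes the shares were 30.6% lower and 25.1% higher. Genes known as circRNA hosts in brain, a list that overlaps the others, gave 27 members from 16 genes, of which 11 were lower and 1 was higher, beside 22 and 10 of 46.

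Host RNA had changed in part by E16. From E14 to E16, 143 of 503 hosts were lower and 30 higher, where 17.8% and 15.2% of all genes were called. From E16 to P0, 125 were lower and 52 higher, where the shares were 16.6% and 16.8%. The 125 became 76 without E16 replicate 3, and the 52 became 33 without P0 replicate 2. Zswim6 was lower by -0.70 in each interval, at 2632, 2925 and 2870 normalized reads at E16, and Ezh2 by -0.72 and then -1.19. Adamts6 showed its increase between E16 and P0, where the log2 fold change was 1.16 (SE 0.13, limma adjusted p = 2.71e-05).

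The sorted E14 libraries, a separate set of samples, show in which cells the host RNA was found. Of 514 tested hosts, 170 (33.1%) were higher in GFP+ than in GFP− cells and 48 (9.34%) were lower, where 12.7% and 18.0% of all 18260 genes were called. The other hosts of circRNAs seen at E14 gave 198 higher (28.7%) and 70 lower (10.1%) of 690. Both groups of hosts were chosen by circles seen in GFP+ cells at E14. The part of that choice in their difference from all genes was not tested. With libraries rescaled to a common total the split was 105 higher and 61 lower, and without GFP− replicate 3 (by column number) 113 were higher. A replicate block by column number gave 269 higher and 64 lower. The dopamine neuron markers summed to 5344 to 6954 normalized reads in GFP− and 100574 to 113086 in GFP+ libraries. Progenitor markers summed to 114045 to 133579 in GFP− and 18606 to 21961 in GFP+ libraries, and their part in these counts was not tested.

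Higher in GFP+ cells were Bnc2, a zinc finger factor, at 83.1, 107 and 110 normalized reads in GFP− and 1506, 1711 and 1731 in GFP+ libraries (log2 fold change 4.04, SE 0.13, limma adjusted p = 2.01e-09). Ebf2 stood at 660 to 733 against 4056 to 4988 (2.72, SE 0.09). Gfra1, the receptor for the survival factor GDNF, stood at 1375 to 1712 against 9199 to 10426 (2.66, SE 0.09). Mcc and the calcium channel subunit gene Cacna2d3 were higher by 2.88 and 2.50. None of the 5 overlapped between the sorts.

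Lower in GFP+ cells were Adamts3, a procollagen protease, at 229 to 258 in GFP− and 16.8 to 25.9 normalized reads in GFP+ libraries (log2 fold change -3.57, SE 0.21, limma adjusted p = 1.79e-07). Tpx2, a spindle protein of dividing cells, was at 507 to 589 against 58.5 to 98.1 (-2.92, SE 0.19). Tfap2d and Npas3, both transcription factors, and Zwilch, of the mitotic checkpoint, were lower by -3.53, -1.89 and -2.08. Lin28b was lower as well, at 688 to 855 in GFP− and 355 to 442 in GFP+ libraries (-0.95, SE 0.12, limma adjusted p = 6.95e-05). Ncam2 and Prom1 were lower by -1.06 and -1.23. The part of other cells within the GFP+ sort in these levels was not tested.

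Just outside the rule were 535 circRNAs in 2 or 3 E14 libraries and 1 P0 library. Circ_00244_Rere led them with 17, 18 and 37 reads at E14 and 6, 0 and 0 at P0. Circ_00257_Wapl, from a gene of a cohesin release factor, had 22, 21 and 24 reads, then 0, 0 and 7. A further 2126 circRNAs were at 0 at P0 and above 0 in 1 E14 library only.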

How the data were processed

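The time series (3 libraries each of E14, E16 and P0 GFP+ cells) and the sorted E14 libraries (3 GFP+, 3 GFP−) were used. The values deposited by the authors are normalized reads of genes and circRNAs, treated as a signal, in which 1 factor scales a library. Trim Galore, TopHat2, DESeq2, GRCm38 and mm10 stand in the submitters' processing notes. The circRNA caller, its filters and the use of strand are not given in the sources used here, and overlapping genes on opposite strands cannot be separated. Further deposited tables hold, per the file headers, the authors' log2 fold changes, their standard errors and p-values.

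Values within a library were whole multiples of a constant step (within 0.1 read), and dividing by it gave reads. For the sorted genes 100% of values came out whole, and edgeR 4.0.16 (quasi-likelihood) on those reads tested 16644 genes and called 5425. This alternative was chosen after seeing the data. The sorted libraries held 17369191 to 22374153 gene reads and the time series libraries 17910017 to 33386535 over the 10781 listed genes. Reads carry no molecular identifiers, so limits cover counting error only. The intervals on shares of circRNAs treat circles as independent and hold no spread between libraries.

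Gene values were tested by two-sided limma-trend (R 4.3.3, limma 3.58.1). Genes with a mean of at least 5 entered as log2(normalized reads + 1), with Benjamini-Hochberg adjustment over all genes and a threshold of 0.05. Fold changes are on that scale, which understates low genes. The 9 time series libraries shared a fit. Only the limma-trend test of P0 against E14 was checked on simulated data. Positions come from GENCODE M21 (GRCm38) and gene spans from RefSeq. Symbols matched 503 hosts in the time series and 515 in the sorted gene table. Columns of the sorted table were assigned to GFP+ or GFP− by name, since their numbers did not tie them to single samples.

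The members, gene lists and tests were chosen with earlier results of these data known. Named were the 10 members highest at E14, the 5 highest among those at 0 at E16, the 5 highest at E16, hosts with several members, up to 3 members per list, circles at the edge of the rule, and hosts of the 10 leading members. A leading member and its host are not reported here. Further hosts were the 5 with the largest change per direction past the threshold, among those averaging at least 50 normalized reads whose libraries did not overlap. Other genes in the text, such as Eed, Robo2, Cadps or Ank2, were picked after their values were seen. Alternatives were the pseudocount, the filter on low values, rescaling, a replicate block, the deposited test, the rule's thresholds and leaving out each library.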

Additional observations from a re-analysis of the deposited data

How the results depend on the processing

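The number of members depends on the rule. It was 174 with all 3 E14 libraries required, 2781 with 1 and 222 with 0 also at E16. With 1 E14 library left out, both that remained had to be above 0, and 287 to 399 members were left. With 1 P0 library left out, fewer zeros were required, and members numbered 780 to 905. Members above the limit of a count of 0 numbered 149 when each 0 could hide 1 read. They numbered 287 to 382 with an E14 library left out and 337 to 449 with a P0 library left out. From E16 to P0, leaving out 1 library gave 76 to 141 lower and 33 to 55 higher hosts. In the sort, hosts higher in GFP+ cells numbered 105 after rescaling and 113 to 183 with a library left out, and 161 by edgeR on recovered reads. Same-numbered libraries did not deviate together in every pair (correlations of -0.11 to 0.24 in the time series and 0.098 to 0.37 in the sort). Differently numbered libraries gave -0.30 to 0.15 in the time series and -0.30 to 0.23 in the sort. Same-numbered libraries were not treated as paired. With a replicate block, 269 hosts were higher in GFP+ cells, and no other count of hosts moved by more than 1.5 times. All 395 alternatives for single named hosts kept their direction and side of the threshold. With E14 reads scaled by circRNA totals, 166 members did not pass the limit of 3 reads. For these an unchanged level and a 0 at P0 were not distinguishable. Where each 0 may hide 1 read, only 149 members lay above the limit, and the same held for all other members. Scaled by gene reads, all 655 members lay above the limit of 3 reads, which the rule fixed in advance.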

Other observations

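Some circles were abundant in a single E14 library and, apart from that of Cadm1, at 0 in all other libraries of the time series. Circ_00140_Klhl1, from the gene of a neuronal actin-binding protein, had 219, 0 and 0 reads at E14 and 0 at E16 and P0. Circ_00844_Malat1, from a nuclear long non-coding RNA gene, had 0, 45 and 0 reads. Circ_01464_Tnks2, from the gene of a tankyrase, had 0, 23 and 0. Circ_00890_Cadm1, from the gene of a synaptic adhesion molecule, had 18 reads in the first E14 library and 24 in the first E16 library, and 0 elsewhere. The requirement of at least 2 E14 libraries left these circles out of the set.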
